A study of Mus musculus with 18 samples.

Results

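The miRNAs described here are the mouse miR-297, miR-466, miR-467 and miR-669 families, measured by 71 of the 1265 probes for mature miRNAs on each array. Members were chosen by name alone, as every probe named for one of these families with any letter, copy number or arm. The probes carry 80 mature names, because 7 of them stand for several mature miRNAs. By family, 4 probes were named for miR-297, 27 for miR-466, 13 for miR-467 and 28 for miR-669, with the probe shared by miR-466m-5p and miR-669m-5p counted in both of its families.

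The study compared splenic B cells of miR-17~92 transgenic mice with those of wild-type mice. Tg9 and Tg79 are founder lines that carry the miR-17~92 cluster under the Eμ enhancer and the immunoglobulin heavy-chain promoter, which drive expression in the B lineage. Each line, and wild type (WT), gave 3 one-colour miRNA arrays, all of total RNA from splenic B cells isolated with magnetic beads. The labels give neither the age nor the strain of the mice and do not say whether arrays of a group came from separate animals, so the p-values measure the spread between these arrays, which may be partly technical.

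Most members of these families come from a large block of short hairpins in an intron of Sfmbt2, a Polycomb group gene that is imprinted in mouse, where copies arose by repeated local duplication. A hairpin is cut to a short duplex whose strands are the 5p and 3p mature miRNAs. Of the pair, one is usually loaded into an Argonaute protein, where bases 2 to 8, the seed, select target mRNAs. These families are known from the mouse placenta, where the block is paternally expressed. Many of their mature sequences are runs of U and G or of C and A, so that members resemble each other closely and can cross-hybridize on a probe array.

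In RefSeq's annotation of the GRCm38.p6 mouse assembly, 72 of the 82 hairpin genes of these families lay inside Sfmbt2. Of the 71 probes, 56 matched hairpins inside Sfmbt2 alone, 9 matched hairpins elsewhere, 5 matched both and 1 (miR-466a-5p) matched no hairpin name. The array files name no assembly, so no coordinates are given.

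RefSeq's GRCm38.p6 table of miRNAs held the mature sequence of 8 of the 71 members, all 8 with hairpins outside Sfmbt2. The sequences below show the kind of repeat found in these members, with each seed in capitals. They need not stand for the members from inside Sfmbt2. The first is miR-467g (chromosome 5), which lay above the detection limit defined below on 8 of 9 arrays, and it is followed by miR-466i-3p (chromosome 13) and miR-467f (chromosome 11), which lay above it on none.
miR-467g: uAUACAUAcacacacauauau
miR-466i-3p: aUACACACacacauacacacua
miR-467f: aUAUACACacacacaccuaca
In the best ungapped alignment, miR-466i-3p differed from miR-467g at 2 of 16 overlapping bases and from miR-467f at 2 of 17. The U and G type is shown by miR-466j (chromosome 10), which lay above the limit on 5 arrays, beside miR-467h (chromosome 9) and miR-466k (chromosome 3), which lay above it on none.
miR-466j: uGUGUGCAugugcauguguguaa
miR-467h: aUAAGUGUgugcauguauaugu
miR-466k: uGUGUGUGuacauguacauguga
MiR-466j and miR-467h differed at 2 of 17 overlapping bases, and miR-466j and miR-466k at 3 of 19. The other 2 members with a sequence, miR-466q and miR-669n, lay above the limit on none, and no seed was shared among the 8. Each of the 8 held at least 3 copies in a row of a dinucleotide that joins U with G, A with C or A with U, in either order, whereas 35 of 1016 other probes with a sequence did (3.44%). Because only 8 of 71 members have a sequence, and none of these comes from inside Sfmbt2, a check of sequence features over the family was void.

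Each miRNA probe had 1 spot, whose deposited reading is a median over pixels in scanner units. A probe was counted as detected on an array when it exceeded the 95th percentile of that array's 24 negative control spots. These were 8 spots each of Negative Control 1, 2 and 3. On every array the 2 control spots above the limit were of Negative Control 2, the brightest of them at the median. The limit thus rests on 1 control sequence. The limit lay between 46.8 and 76.0 scanner units. Of the 1664 blank spots, 0% to 1.26% exceeded it. The 6 lymphocyte markers on the arrays, among them miR-150-5p and miR-142-3p, exceeded it on all 9 arrays. Their summed intensity was 13098 to 16897 on WT arrays, 6809 to 15637 on Tg9 arrays and 3387 to 9787 on Tg79 arrays. Of 10 markers of other cell types, 2 (miR-223-3p of myeloid cells and miR-451a of red cells) exceeded the limit on all 9 arrays. On none did 4 of them, miR-144-3p, miR-133a-3p, miR-1a-3p and miR-122-5p. Of the rest, endothelial miR-126-3p exceeded it on 8 arrays and miR-126-5p on 1. Stromal and muscle miR-143-3p exceeded it on 7 and miR-145a-5p on 5. The summed intensity of the 10 markers was 706 to 949 on WT arrays, 736.3 to 1129.97 on Tg9 arrays and 598.7 to 881.8 on Tg79 arrays. The transgene product miR-17-5p read 1574, 1842 and 1788 on WT1 to WT3 and 5834, 12150 and 11849 on Tg79-1 to Tg79-3. It read 5546 on Tg9-1, but 1977 and 1514 on the arrays that are labelled Tg9-2 and Tg9-3, which thus lay near wild type for this miRNA. Whether these 2 labels hold was not tested and cannot be settled from the deposited data. The miRNA arrays lay on 3 slides, with the Tg9 arrays and WT1 on the first, the Tg79 arrays and WT2 on the second and WT3 on the third.

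The repeat miRNAs were close to background in B cells of all 3 groups. Of the 71 probes, 45 lay above the limit on no array, 26 on at least 1, 14 on at least 3 and 2 on all 9. Of the 1194 other miRNA probes, 589 lay above it on at least 1 array and 40.8% on at least 3, against 19.7% of the repeat members. The median member read 0.777 to 0.912 times the limit of its array, and blank spots read 0.761 to 0.873 times that limit at the median. The highest reading of any member on an array was 73.3 to 156 scanner units.

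On WT1, WT2 and WT3, 22.5%, 19.7% and 14.1% of members lay above the limit. In line Tg9 the shares were 8.45% on Tg9-1, and 31.0% and 19.7% on those with the labels Tg9-2 and Tg9-3, and on Tg79-1, Tg79-2 and Tg79-3, 2.82%, 11.3% and 4.23%. All 3 Tg79 arrays thus lay below all 3 WT arrays, while the Tg9 arrays spanned the WT range and included both a lower and a higher value. Without the 2 Tg9 arrays that read miR-17-5p near wild type, the line is left with the 8.45% of Tg9-1, a single array, below all WT arrays. The group means were 18.8% ± 4.30 in WT, 19.7% ± 11.3 in Tg9 and 6.10% ± 4.53 in Tg79 (SD, n = 3 arrays).

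The rest of the miRNA probes were also detected less often on Tg79 arrays, at 25.7% to 33.6% against 36.3% to 41.9% in WT and 34.5% to 44.0% in Tg9. Set as a ratio, the share of members above the limit was 0.387 to 0.538 times that of the other probes in WT, 0.245 to 0.752 times in Tg9 and 0.110 to 0.335 times in Tg79. These ratios did not overlap between Tg79 and WT. Their size depends on the limit: the members of WT arrays stood at 40.8% to 57.7% beside 46.7% to 64.6% of the other probes by the cells filled in the authors' deposited table, and at 7.04% to 14.1% beside 12.9% to 16.3% after subtraction of the background column. The Tg79 members stood at 12.7% to 23.9% beside 38.4% to 47.3% and at 1.41% to 5.63% beside 11.7% to 13.9%, below the WT arrays in both. On slide 2, which holds WT2 and the Tg79 arrays, the member shares were 19.7% for WT2 and 2.82% to 11.3% for Tg79. On slide 1, WT1 at 22.5% lay within the Tg9 values of 8.45% to 31.0%. The share depends on the limit, which was 57.7 to 76.0 on Tg79 arrays and 53.4 to 72.9 on WT arrays. The WT range of limits thus overlapped that of Tg79 over all slides. On slide 2, however, the limit of WT2 (53.4) lay below those of all 3 Tg79 arrays. The median member there read 47.7 scanner units on WT2 and 59.0, 49.5 and 51.0 on Tg79-1 to Tg79-3. Blank spots there read 45.6 at the median on WT2 and 57.8, 47.9 and 52.0 on Tg79-1 to Tg79-3. Relative to the limit of its array, the median member stood at 0.893 on WT2 and at 0.777, 0.858 and 0.825 on Tg79-1 to Tg79-3. Of the 6 lymphocyte markers, the fitted log2 difference for Tg79 against WT was -2.0 for miR-150-5p, -1.07 for miR-142-3p and -0.77 for miR-142-5p, but 1.52 for miR-155-5p, 0.98 for miR-181a-5p and 1.14 for miR-181b-5p, the last alone passing the limma test (adjusted p = 0.0387). The parts of array background and of these markers in the lower Tg79 share were not tested. In bulk RNA, fewer cells that express a miRNA and less of it per cell cannot be told apart.

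A second imprinted mouse cluster, the miRNAs of the Dlk1-Dio3 domain, served for comparison, with 105 probes. Of these, 14.3% to 22.9% lay above the limit on WT arrays, 14.3% to 18.1% on Tg9 arrays and 9.52% to 14.3% on Tg79 arrays. The ranges of both sets overlapped on WT arrays, and the difference between the sets was not tested.

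**Figure D1:**
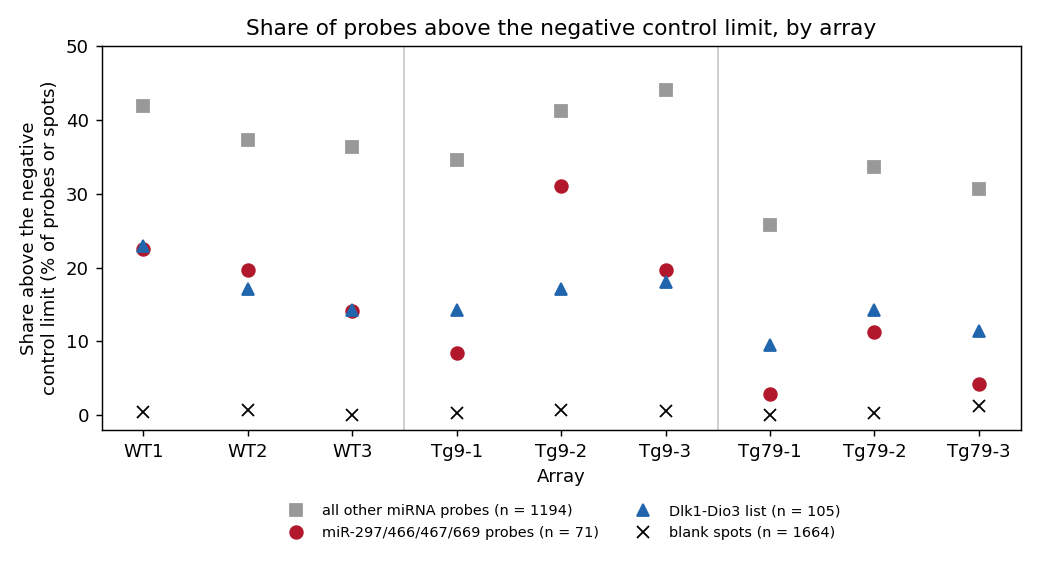
Share of probes or spots above the negative control limit (%, y axis) on each of the 9 arrays (x axis), for the repeat members, all other miRNA probes, the Dlk1-Dio3 list and blank spots. The members sit at 14.1% to 22.5% in WT, 8.45% to 31.0% in Tg9 and 2.82% to 11.3% in Tg79, between blank spots and the other probes on every array.

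Detection was uneven among the families. At least 3 arrays read above the limit for 11 of the 27 miR-466 probes, against 1 of 13 for miR-467 and 1 of 4 for miR-297. For miR-669 the count was 1 of 27 probes, with the probe shared by miR-466m-5p and miR-669m-5p counted under miR-466. By place of origin, 7 of the 56 probes with hairpins inside Sfmbt2 alone reached 3 arrays, as did 3 of the 9 with hairpins elsewhere and 4 of the 5 with both. The 3 from elsewhere were miR-466i-5p (chromosome 13), miR-467g (chromosome 5) and miR-466j (chromosome 10), so that of the 2 members detected on every array, miR-466h-3p matched a single hairpin inside Sfmbt2 on chromosome 2 and miR-466i-5p a single hairpin outside it. Origin here is by name only, since a probe of this repeat type may bind several of its relatives.

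MiR-466i-5p was the 5p-arm probe detected on all 9 arrays. It read 156, 73.3 and 142 scanner units on WT1 to WT3, where the limits were 61.0, 53.4 and 72.9. On the Tg9 arrays it read 78.3, 93.6 and 84.3, and on the Tg79 arrays 91.2, 83.3 and 79.1. WT1 and WT3 gave its highest readings and WT2 its lowest, so the transgenic arrays lay inside the WT range.

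MiR-466h-3p read 82.3, 60.5 and 91.5 in WT, 61.4, 57.1 and 56.6 in Tg9 and 78.8, 62.0 and 62.3 in Tg79. It exceeded the limit by the least on Tg79-3, at 1.01 times the limit, and by the most on WT1, at 1.35 times. MiR-467g was detected on 8 arrays and missed on Tg79-1. It read 96.5, 69.9 and 93.1 in WT, 78.0, 68.3 and 66.9 in Tg9 and 67.9, 85.4 and 75.6 in Tg79. For both probes each line overlapped WT in these readings. The lines overlapped each other for miR-467g, whereas miR-466h-3p read lower on all Tg9 arrays than on all Tg79 arrays before normalization.

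MiR-669f-5p was above the limit on all 3 WT arrays, on 2 arrays with the labels Tg9-2 and Tg9-3, and on no Tg79 array. It read 82.5, 58.4 and 84.5 in WT, 56.9, 54.8 and 53.2 in Tg9 and 65.1, 57.3 and 55.1 in Tg79. The probe shared by miR-466b-3p, miR-466c-3p and miR-466p-3p, which matches 12 hairpin genes inside Sfmbt2, read 63.4, 55.3 and 70.0 in WT. It read 54.9, 57.2 and 45.01 in Tg9 and 55.7, 50.4 and 50.5 in Tg79, and passed the limit on WT1, WT2 and the array labelled Tg9-2. MiR-466d-3p passed it on the same 3 arrays, with 62.1, 53.7 and 68.0 in WT, 54.3, 51.7 and 44.5 in Tg9 and 56.6, 48.6 and 53.9 in Tg79.

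Detection of the 14 members that reached 3 arrays differed by array as well as by group. WT1 and the array labelled Tg9-2 detected all 14, WT2 and the array labelled Tg9-3 detected 12, and WT3 detected 10. Tg79-2 detected 7, Tg9-1 detected 5, Tg79-3 detected 3 and Tg79-1 detected 2. Read against the limit of its own array, the highest value was on WT1 for 11 of the 14 and on the array labelled Tg9-2 for the other 3. Another 8 members were above the limit on a single array, which for 5 of them was the array labelled Tg9-2. Among these 8, chosen after their values were seen, miR-669i read 104 on Tg79-2 and 37.97 to 54.7 on the other arrays, and miR-669j read 61.4 on Tg9-1 and 39.5 to 59.4 on the others. Each rests on 1 spot.

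**Figure D2:**
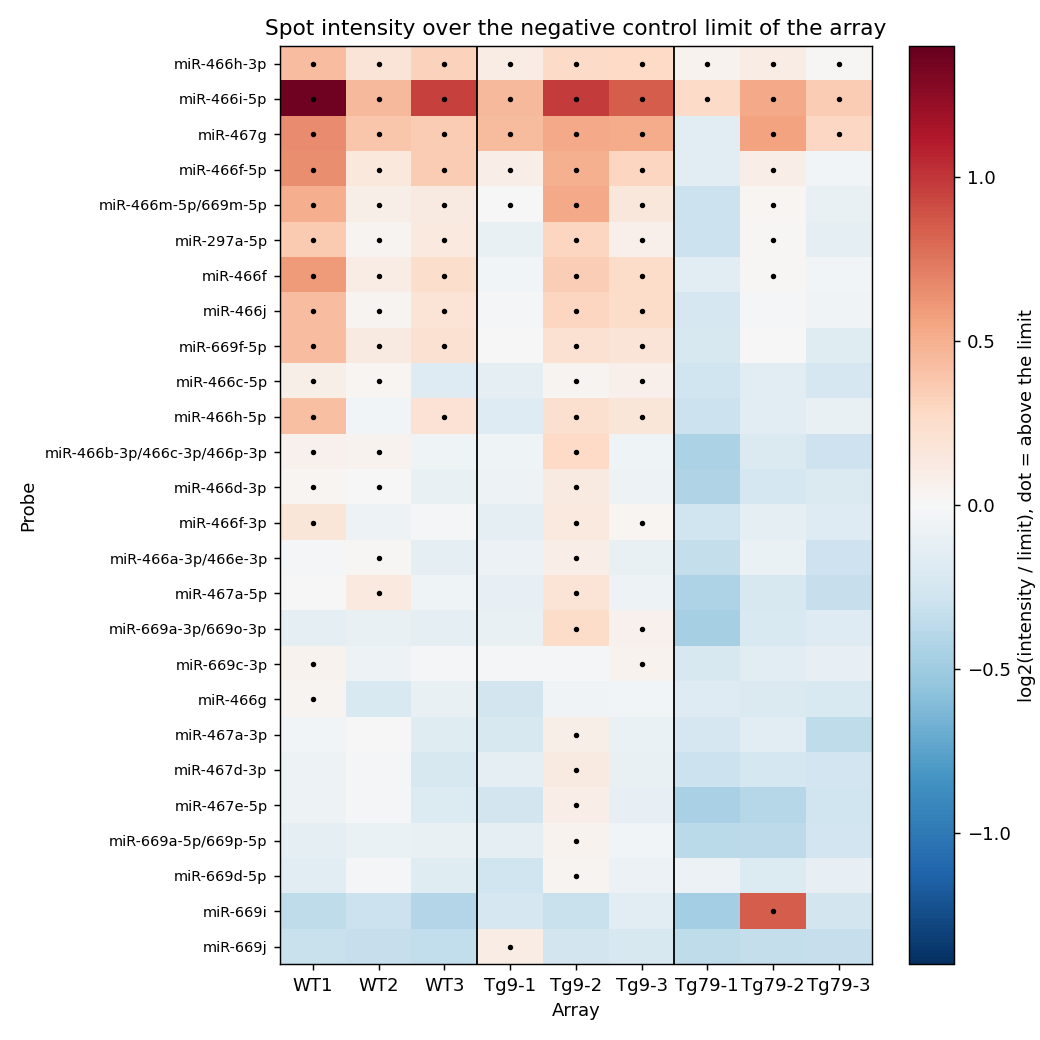
Spot intensity over the negative control limit of its array, as log2 (colour, with a dot where the limit is exceeded), for the 26 members above the limit on at least 1 array (rows) on the 9 arrays (columns). WT1 and the array labelled Tg9-2 carry dots for all 14 members in the upper rows, Tg79-1 for 2, and miR-669i stands out on Tg79-2 alone.

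Both arms of a hairpin were on the array for 33 hairpin names, some sharing a probe with another name. The 5p arm was above the limit on more arrays than the 3p arm for 11 of them, the 3p arm for 10, and neither arm was detected for 12. Several of these rest on a margin of 1 array. For miR-467e, miR-669d and miR-669p (5p) and miR-467d (3p) that was the array labelled Tg9-2 alone. Over all probes, 7 of the 30 named 5p, 4 of the 29 named 3p and 3 of the 12 without an arm in the name reached 3 arrays. The counts for the arms were close over the families, while single hairpins were uneven. For miR-466i the 5p arm was detected on 9 arrays and the 3p arm on 0. MiR-669f (5 arrays against 0), miR-297a (6 against 0) and the miR-466m and miR-669m names that share a 5p probe (7 against 0) also had detection of the 5p arm alone.

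MiR-466h ran the other way, with its 3p arm detected on 9 arrays and its 5p arm on 4. The 5p arm of miR-466h read 81.7, 52.0 and 83.7 in WT, 50.5, 55.4 and 52.5 in Tg9 and 61.9, 52.1 and 57.4 in Tg79. MiR-466b and miR-466d were detected by the 3p arm alone, each on 3 arrays. In miR-466f the 5p arm was detected on 7 arrays and the 3p arm on 3. The 5p arm read 95.5, 59.1 and 93.4 in WT, 61.2, 66.8 and 57.7 in Tg9 and 68.6, 61.5 and 60.1 in Tg79, while the 3p arm read 68.6, 50.8 and 71.7, then 52.2, 52.0 and 47.8, then 62.4, 52.5 and 54.5. In miR-466c, the 5p arm was detected on 4 arrays, with 64.4, 54.4 and 64.5 in WT, 52.4, 48.7 and 49.3 in Tg9 and 62.7, 51.6 and 52.4 in Tg79, and its 3p arm is the shared probe above. These are counts of arrays for each probe. Probes differ in how well they bind, so intensities of the arms were not set against each other.

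**Figure D3:**
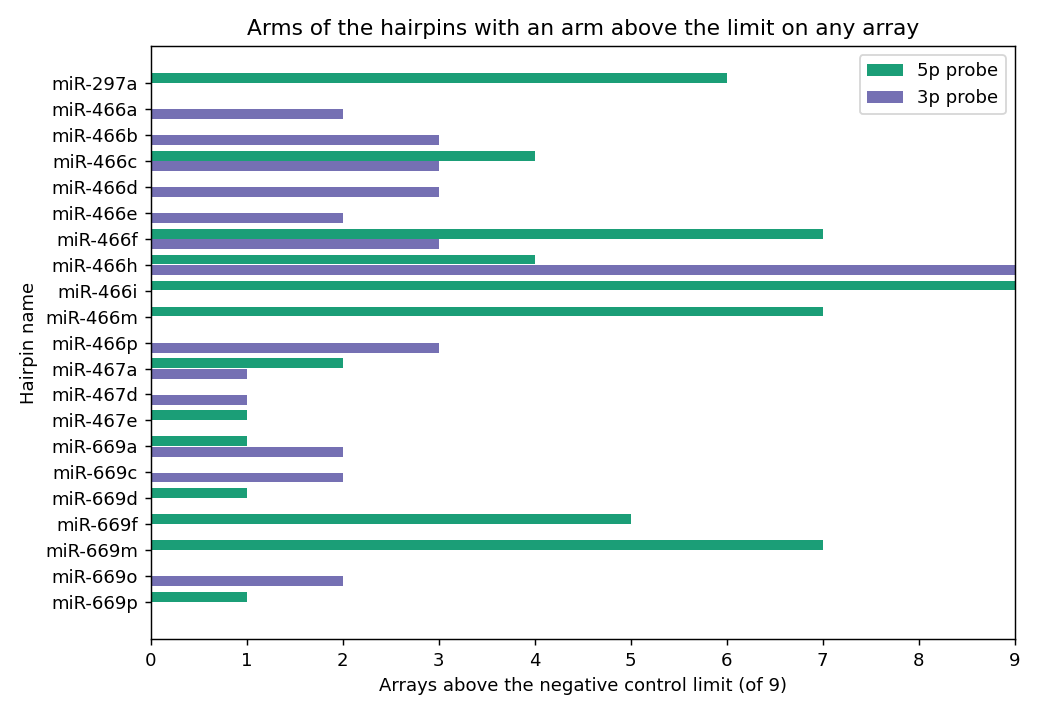
Number of arrays, of 9, on which the 5p and the 3p probe exceeded the negative control limit (x axis), for the 21 hairpin names with at least 1 arm above it on any array (y axis). Names that share a probe repeat its bar; miR-466i has 9 arrays for 5p and 0 for 3p, and miR-466h has 4 for 5p and 9 for 3p.

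Group differences were estimated on normexp-corrected, quantile-normalized log2 intensity for the 501 miRNA probes above the limit on at least 3 arrays, 14 of them members. No member passed limma's test at a Benjamini-Hochberg adjusted p under 0.05 in any of the 4 comparisons. Among all probes tested, 4.59% were called for Tg79 against WT (23 probes) and 0% for Tg9 against WT, for the mean of both lines against WT and for Tg79 against Tg9. The 23 calls are an unsteady background, as their number was 0 without WT1, WT3, the array labelled Tg9-3 or Tg79-2, 9 without WT2 and 11 without Tg79-1, and 79 with array quality weights. The smallest adjusted p of a member in limma was 0.147 for Tg79 against WT, 0.99 for Tg9 against WT, 0.357 for both lines against WT and 0.267 for Tg79 against Tg9.

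At an unadjusted p under 0.05, the members past the threshold were 3 of 14 for Tg79 against WT (24.6% of all probes tested), 0 for Tg9 against WT (0.599%), 1 for both lines against WT (13.4%) and 1 for Tg79 against Tg9 (15.4%). In each comparison this was no larger a share than that of all probes, at 21.4%, 0%, 7.14% and 7.14%. A member could enter the test through the group where it read highest, so the counts and medians over the 14 describe the probes tested and not the 71.

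The members' fitted differences were small and mostly below 0. For Tg79 against WT, 12 of 14 were below 0, beside 57.7% of all probes tested, and their median log2 difference was -0.13 beside -0.04 for all. For Tg9 against WT, 11 of 14 were below 0 beside 55.7% of all, with medians of -0.04 and -0.01. For both lines against WT, 13 of 14 were below 0 beside 57.1% of all, with medians of -0.09 and -0.03, and for Tg79 against Tg9, 13 of 14 beside 55.1%, with medians of -0.08 and -0.03. The comparisons share arrays and are not independent of each other. Over the tested members, the median log2 level was 6.20 ± 0.08 in WT, 6.13 ± 0.08 in Tg9 and 6.05 ± 0.07 in Tg79 (SD, n = 3 arrays). By array, this median ran from 6.11 to 6.28 in WT, from 6.06 to 6.23 in Tg9 and from 5.99 to 6.12 in Tg79, so the groups overlapped.

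Without the arrays labelled Tg9-2 and Tg9-3, limma still called 0 members in the 4 comparisons, with fewer members reaching 3 arrays and so tested (9). The median of these was -0.12 for Tg79 against WT, -0.12 for Tg9-1 against WT and -0.13 for both lines against WT. For Tg79 against Tg9-1 it was 0.01, with 4 of 9 below 0. This is smaller than the SD of 0.08 between replicates of the array median. The lower level given above for Tg79 against Tg9 was thus not seen in this smaller set. Tg9-1, then the lone array of its line, was assumed to vary like the other groups.

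The sign depends on the scaling. When arrays were scaled to the 75th percentile of the probes detected on all 9 arrays, an alternative chosen after seeing the data, the median of all tested probes for Tg79 against WT moved from -0.04 to 0.48 and that of the members from -0.13 to 0.48. All 14 members then lay above 0, and limma called 3 of them higher in Tg79, miR-466c-5p, miR-466d-3p and miR-466f-3p, with adjusted p of 0.045, 0.048 and 0.043, among 36.9% of all probes. None of the 3 was above the limit on any Tg79 array. The shift was common to all probes tested. Relative to the median of all probes, the members stood at -0.09 under quantile normalization and at 0.00 under this scaling.

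MiR-669f-5p had the smallest p among the members for Tg79 against WT. Its normalized log2 level was 6.28, 6.16 and 6.22 on WT1 to WT3, 6.09, 6.15 and 6.12 in Tg9 and 6.04, 6.11 and 5.98 in Tg79. All WT arrays lay above all Tg9 and all Tg79 arrays, though the lowest WT array (6.16) was next to the highest Tg9 array (6.15). The log2 difference was -0.18 ± 0.06 (SE) for Tg79 against WT (limma adjusted p = 0.147), -0.10 ± 0.06 for Tg9 against WT (adjusted p = 0.99) and -0.14 ± 0.06 for both lines against WT (adjusted p = 0.357). Tg79 arrays did not read it above background. Counted against the lowest signal above background on those arrays (6.21), the WT mean of 6.22 gave a bound of 1.006-fold. This gap is within the standard error of 0.06, so no size is read from it. Under scaling to the 75th percentile of the probes detected on all 9 arrays, the 3 differences were 0.42, 0.013 and 0.22. Each was above 0 but below the median of all probes tested (0.48, 0.07 and 0.27). Scaling to the 75th percentile of each array kept them below 0, at -0.099, -0.063 and -0.081.

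The shared miR-466b-3p, miR-466c-3p and miR-466p-3p probe had levels of 6.03, 6.10 and 6.03 in WT, 6.04, 6.22 and 5.94 in Tg9 and 5.78, 5.91 and 5.84 in Tg79. The Tg79 arrays lay below the other 6, with a log2 difference of -0.21 ± 0.08 (SE) against WT (limma adjusted p = 0.177) and -0.22 ± 0.08 against Tg9 (adjusted p = 0.267). Levels of miR-466d-3p were 6.02, 6.06 and 6.0 in WT, 6.02, 6.09 and 5.93 in Tg9 and 5.81, 5.85 and 5.94 in Tg79, with a difference of -0.16 for Tg79 against WT (adjusted p = 0.202). The Tg79 arrays read both probes below the detection limit, so these sizes carry no bound.

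All 3 Tg79 arrays lay below all 3 WT arrays for 4 of the 14 members, miR-669f-5p, miR-466d-3p, miR-466f-3p and the shared miR-466b-3p probe, beside 16.4% of all probes tested. All Tg9 arrays lay below all WT arrays for miR-669f-5p, beside 2% of all probes, and all Tg79 arrays below all Tg9 arrays for 2 members, miR-466f-5p and the shared miR-466b-3p probe, beside 10.4%. In all, 7 of the 14 members were above the limit on no Tg79 array, a count for which the share over all probes tested was not taken. These 7 entered the test through WT and Tg9 arrays alone, so the count follows in part from the filter. Tg79 arrays also detected a smaller share of the other miRNA probes than WT arrays did.

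The 2 members detected on every array did not separate the groups. MiR-466i-5p had levels of 6.99, 6.44 and 6.78 in WT, 6.57, 6.72 and 6.72 in Tg9 and 6.64, 6.67 and 6.54 in Tg79, a log2 difference of -0.12 for Tg79 against WT (limma adjusted p = 0.621) and of -0.07 for Tg9 against WT (adjusted p = 0.99). Without WT1 these differences were 0.01 and 0.06. MiR-466h-3p was at 6.26 ± 0.05 in WT, 6.20 ± 0.01 in Tg9 and 6.27 ± 0.11 in Tg79, and miR-467g at 6.39 ± 0.06, 6.46 ± 0.09 and 6.44 ± 0.32 (SD, n = 3). For these and the other members the fitted difference for Tg79 against WT ran from -0.21 to 0.06, with standard errors of 0.06 to 0.15.

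**Figure D4:**
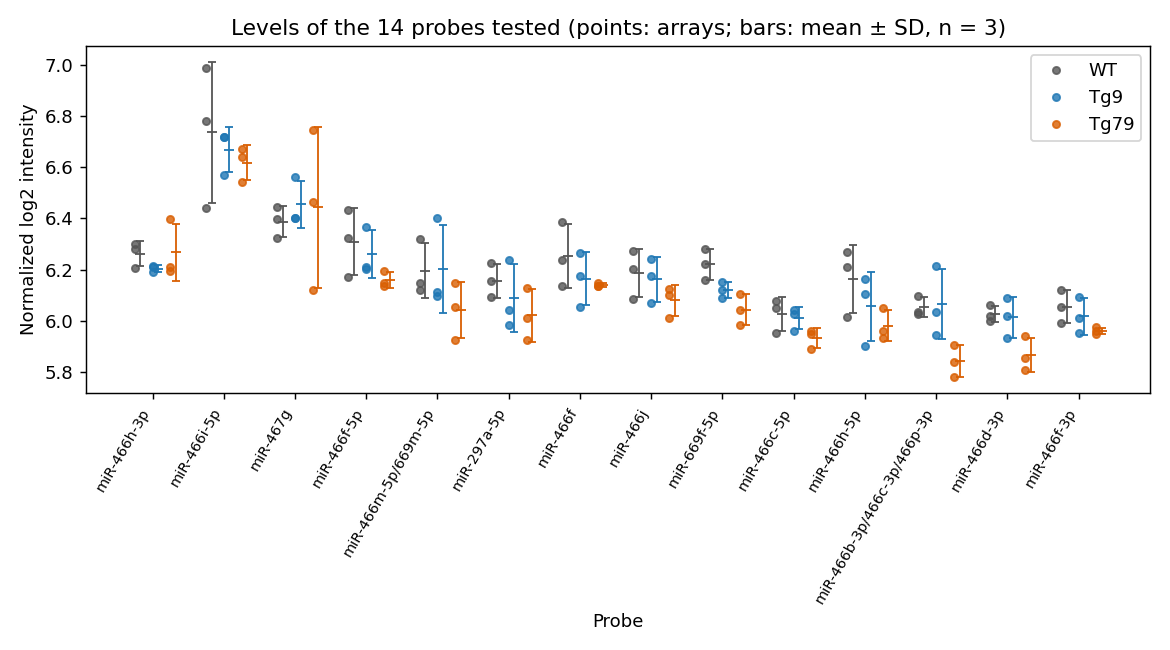
Normalized log2 intensity (y axis) of the 14 members tested (x axis) on each array (points) with the mean and SD of each group (bars, n = 3); levels of different probes are not comparable. The Tg79 points lie below the WT points without overlap for 4 probes, and miR-466i-5p spreads from 6.44 to 6.99 within WT.

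Within slides, a WT array shared the slide with a line. The members' median difference was -0.11 for the Tg9 arrays against WT1, beside -0.02 over all probes tested. For the Tg79 arrays against WT2 it was -0.03, beside 0.00. Each value rests on 1 WT array and was not tested. WT1 detected all 14 members tested, 11 of them with their highest value over the limit, and WT2 detected 12. These WT arrays thus helped the members pass the filter, and differences below 0 follow in part from it. Within slide 2, the difference was -0.12 for miR-669f-5p, -0.26 for the shared miR-466b-3p probe and -0.20 for miR-466d-3p, while that of miR-466i-5p was 0.18. Within slide 1, miR-669f-5p stood at -0.16 and miR-466i-5p at -0.32, and the shared miR-466b-3p probe at 0.03.

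**Figure D5:**
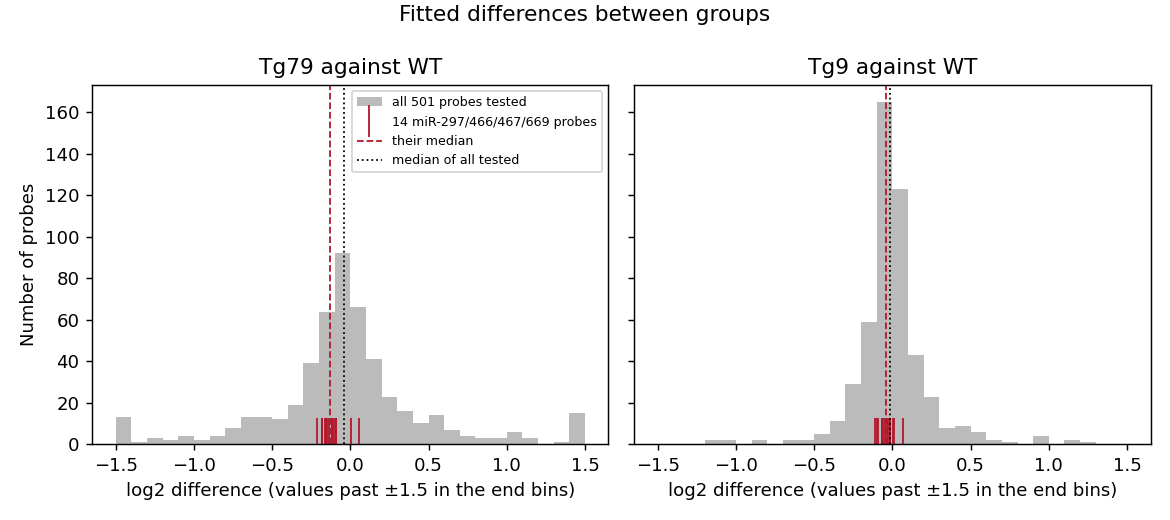
Number of probes (y axis) by fitted log2 difference (x axis) for Tg79 against WT (left) and Tg9 against WT (right), for all 501 probes tested (grey), with the 14 members as red ticks. The members' medians of -0.13 and -0.04 (dashed) lie close to those of all probes, -0.04 and -0.01 (dotted), and no member lies far from 0.

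The Dlk1-Dio3 list had 17 probes tested, with median log2 differences of -0.02 for Tg79 against WT and -0.02 for Tg9 against WT, and 0 called in any comparison. Among the other probes tested, those whose levels over the 9 arrays were most like the mean of the members were the probe shared by miR-3070a-5p and miR-3070b-5p (Pearson r = 0.90), miR-1186b (0.90), miR-1186a (0.88), miR-3472 (0.88) and miR-3064-5p (0.86). These are descriptions over 9 arrays that share their normalization and background. Of the 35 other probes with a dinucleotide run in their sequence, 10 (28.6%) reached 3 arrays, beside 39.4% of the other probes without a run. Of these 10, 6 were above the limit on all 9 arrays. Among the rest, and chosen after their values were seen, were miR-574-5p on 8, miR-1187 on 5 and miR-3082-5p on 5.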

How the data were processed

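Values were taken from the scanner files of the 9 miRNA arrays. Per the file headers, the authors deposited the median spot intensity, integrated over scanner gains and not normalized. A deposited background column followed the spot (r of 0.982 to 0.995 on the log2 scale across spots) and was subtracted only in an alternative. The authors' deposited series table holds log2 values with dim probes empty; its identifiers stood 5 rows off and were moved for an alternative. Its normalization and centring are not given in the sources used here. The labels describe aRNA labelled with Cy5.

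All spots were corrected with normexp (offset 50), taken to log2 and quantile normalized over the miRNA probes. One limma model (R 4.3.3, limma 3.58.1) with 3 group means and empirical Bayes gave two-sided tests with Benjamini-Hochberg adjustment over 501 probes. It was tested on simulated data. The members, lists and comparisons were chosen with earlier results of these data known. Members named are those above the limit on all 9 arrays, the 5 with the smallest p in each comparison and both arms of hairpins with both arms tested; others are marked as chosen after their values were seen or follow from a count. Replicate numbers did not pair arrays: deviations of same-numbered arrays correlated at -0.43 to 0.38. Probes of the mRNA arrays carry no gene names in the files used here, so the host gene was not analysed here. Alternatives changed background, scaling, filter, model, slide, weights and arrays. Arrays give no molecule counts; their number limits the precision.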

Additional observations from a re-analysis of the deposited data

Results flagged for a closer look

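Of 16 sets of 6 transgenic arrays tested for a reading far from the others (the levels of the 14 tested members, their array median and the share above the limit), 2 held one, where chance gives about 1 in 20. The array labelled Tg9-2 read miR-466f-5p at a normalized log2 level of 6.37, with the other transgenic arrays at 6.13 to 6.21. Tg79-1 read miR-466h-3p at 6.40, with the others at 6.19 to 6.21. Groups of 3 arrays are too small for this comparison and were not examined singly.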

How the results depend on the processing

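No member was called in any of the 4 comparisons under the alternatives run, leaving out each array in turn included, except that scaling to the 75th percentile of the probes detected on all arrays called 3 for Tg79 against WT. Under that scaling the members' median difference was 0.48 for Tg79 against WT (0.00092 relative to all probes), 0.068 for Tg9, 0.28 for both lines and 0.41 for Tg79 against Tg9. It raised the median of all probes to 0.48, 0.07, 0.27 and 0.41, and with it the values of single members above 0, miR-669f-5p to 0.42 for Tg79, 0.013 for Tg9 and 0.22 for both lines (each below that median), the shared miR-466b-3p probe to 0.48 against WT and 0.30 against Tg9, miR-466d-3p to 0.53 and miR-466i-5p to 0.27. Scaling to the 75th percentile of each array gave a member median of -0.039 for Tg79 against WT (0.00092 relative to all probes) and 0.015 for miR-466d-3p. Normexp with the deposited background column gave -0.0069 for Tg79 (-0.0062 relative), -0.0082 for both lines, 0.10 for miR-466i-5p in Tg79 and 0.0022 for the shared probe against Tg9. The authors' values, with dim cells empty, gave -0.82, -0.36, -0.73 and -0.50 for the 4 comparisons in the order above. These rest on 21, 34, 21 and 21 members. The medians of all probes fell as well, to -0.74, -0.31, -0.53 and -0.43. Relative to all probes, the members stood at -0.086, -0.051, -0.20 and -0.074. With no filter, 71 members were fitted and the Tg79 median was -0.042. With slide as a factor it was -0.032, the Tg79 against Tg9 median was 0.068 (0.044 relative), and miR-466i-5p stood at 0.18 in Tg79. The Tg79 against Tg9 median was 0.0061 for the members above the limit on all arrays and 0.011 when Tg9-2 and Tg9-3 were left out together. The cause of these shifts was not tested.

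The replicate block left 0 members called and the member median at -0.13 for Tg79 and -0.04 for Tg9 against WT, but ended all 23 calls among the 501 probes for Tg79 against WT. That count was also 0 with slide as a factor, with the background column and with no filter, 32 with trend and robust moderation, 39 with slide as a random block or with scaling to the 75th percentile of each array, 79 with array weights, 80 with the authors' values and 0 to 29 when 1 array was left out. Leaving out each array in turn, the member median ran from -0.17 to -0.08 for Tg79, from -0.09 to 0.00 for Tg9 and from -0.13 to -0.03 for both lines against WT, and from -0.11 to -0.04 for Tg79 against Tg9; miR-466i-5p ran from -0.26 (without WT2) to 0.013 (without WT1) in Tg79 and from -0.22 to 0.059 in Tg9. The mean share of members detected was 10.8% in WT, 8.45% in Tg9 and 3.76% in Tg79 after subtracting the background column, 50.7%, 35.7% and 18.8% in WT, Tg9 and Tg79 for cells filled in the authors' table, and 39.4%, 29.6% and 14.6% with a limit from the blank spots, the last 2 limits chosen after seeing the data. Of 499 alternative values, 457 kept their direction and side of the threshold or moved by less than the spread between arrays. Most members lie near background, so small differences cannot be resolved on these arrays.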
